A study of Homo sapiens with 6 samples.

Results

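The mRNAs of the cap-binding initiation machinery were compared in KHM-5M cells, a line from an anaplastic thyroid cancer, with and without sodium selenite (SS). The 10 genes were taken by their family: the inhibitors EIF4EBP1, EIF4EBP2 and EIF4EBP3, the cap-binding proteins EIF4E, EIF4E2 and EIF4E3, the scaffolds EIF4G1, EIF4G2 and EIF4G3, and the helicase EIF4A1. All 10 were among the 17687 genes of the table, and all 10 passed the filter on low counts that left 14005 genes to test. EIF4EBP3 passed it only through the SS libraries, whereas the other 9 reached its level in every library. The 6 libraries fell into 3 groups of 2: cells given PBS (control), cells given SS, and cells given SS with N-acetylcysteine, an antioxidant (SS+NAC). The labels give neither a dose unit nor an exposure time, all groups share the one cell line, and no group received N-acetylcysteine alone. The comparisons ask what SS does to these mRNAs and whether the antioxidant alters that.

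Cap-dependent translation starts when eIF4E binds the cap at the 5′ end of an mRNA. eIF4G joins eIF4E to the RNA helicase eIF4A and to the small ribosomal subunit. The 4E-BPs compete with eIF4G for the same face of eIF4E, and the kinase mTOR phosphorylates them, which releases eIF4E. This control acts on protein, so an mRNA level says nothing of whether a 4E-BP is active.

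The libraries held between 17645545 and 23810056 expected counts, with counts in 16114 to 16503 genes. The thyroid transcription factor PAX8 stood at 110.0 to 129.7 TPM (transcript levels per length, scaled to one total) in the group means, and the keratins KRT8 and KRT18 at 798 to 1332 TPM. The other epithelial markers were low, KRT19 at 1.27 to 1.88, EPCAM at 3.91 to 5.55 and CDH1 at no more than 0.225 TPM, and TG, SLC5A5 and NKX2-1 stayed below 1 TPM. Of 8 markers of blood, endothelium and fibroblasts, 3 passed 1 TPM (CD68, COL1A1 and PDGFRB), and PTPRC, CD3E, PECAM1, CDH5 and COL3A1 did not. Their summed level ranged from 242 to 379.9 TPM over the libraries. In control, SS and SS+NAC, COL1A1 had 215.6, 173.1 and 262.3 TPM, CD68 84.85, 76.41 and 105.2, and PDGFRB 5.64, 3.82 and 5.28. All 3 were lowest in SS, and the part of these markers in the results was not tested. Between SS and control, edgeR called 40.0% of all tested genes at an adjusted p of at most 0.05, without a correction for length. The log2 fold change of a gene followed its length (Spearman's rho across genes -0.68, which are not independent). This correlation was -0.04 between SS+NAC and control. The SS fold changes of the members are therefore given also from a fit with a length offset, a correction in each library for the trend of all genes with effective length (the transcript length open to read starts). With this offset 9.23% of all tested genes were called between SS and control. A further offset, chosen after seeing the data, was made from the median annotated length of the coding transcripts of a gene (the annotated-length offset).

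In GENCODE release 29 on GRCh38, EIF4EBP3 is a short gene at chr5:140547666-140549578 on the plus strand, with 3 exons and a transcript of 691 bases. The read-through gene ANKHD1-EIF4EBP3 (chr5:140401908-140549569) joins it to ANKHD1 upstream and contains 507 of these bases. Exon 1 (140547666 to 140547840, 175 bases, 103 of them coding) belongs to EIF4EBP3 alone. Exon 2 (140548906 to 140549076) is shared whole, as are 336 of the 345 bases of exon 3. Of the 642 windows of 50 bases, the read length, 461 (71.8%) also occur in the read-through gene.

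EIF4EBP3 therefore has a start of its own, and the 250 bases before it are shown from RefSeq on GRCh38.p14, chr5:140547412-140547661, plus strand. The 250 bases before the RefSeq start of ANKHD1-EIF4EBP3 (chr5:140401583-140401832, plus strand) are set under it, since both starts can give reads in the shared exons, followed by those of EIF4EBP2 (chr10:70403895-70404144, plus strand), another inhibitor of eIF4E. Capitals mark matches, on either strand, to 3 motifs: the E-box CACGTG, the ATF4 element TGATGNAA and the antioxidant response element TGACNNNGC.
EIF4EBP3: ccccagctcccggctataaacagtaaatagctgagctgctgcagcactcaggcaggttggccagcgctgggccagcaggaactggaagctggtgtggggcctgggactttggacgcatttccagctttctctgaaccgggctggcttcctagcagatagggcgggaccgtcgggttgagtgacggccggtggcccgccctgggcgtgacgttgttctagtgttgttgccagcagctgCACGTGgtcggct
ANKHD1-EIF4EBP3: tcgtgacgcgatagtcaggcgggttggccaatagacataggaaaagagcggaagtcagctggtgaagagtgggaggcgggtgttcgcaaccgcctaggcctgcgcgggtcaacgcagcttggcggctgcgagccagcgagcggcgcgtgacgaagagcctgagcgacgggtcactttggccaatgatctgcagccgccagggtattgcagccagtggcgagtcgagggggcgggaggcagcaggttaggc
EIF4EBP2: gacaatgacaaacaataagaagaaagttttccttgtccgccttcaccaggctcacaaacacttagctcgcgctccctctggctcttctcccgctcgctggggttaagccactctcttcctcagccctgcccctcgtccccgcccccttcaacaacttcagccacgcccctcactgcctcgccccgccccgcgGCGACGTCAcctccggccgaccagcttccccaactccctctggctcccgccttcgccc
The EIF4EBP3 window holds 1 E-box, 13 bases before the start, and the same letters occur in 6.32% of 34943 promoter windows of this length. Of the other members with a window, EIF4E holds 2 E-boxes and 1 of the windows of EIF4G1 holds 2. E-boxes of these letters are read by MYC and by the TFEB and TFE3 factors. The EIF4EBP2 window holds 1 TGACNNNGC match, a motif present in 10.9% of the windows, and the read-through window holds none of the 3 motifs. TGATGNAA was found in none of these 3 windows, and in 3.15% of all. The EIF4EBP3 window had a GC content of 62.4% and 14 CpG, the read-through window 64.4% and 24. The matches are letters in a window and were not measured as binding.

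In control cells the levels of the members differed widely. EIF4A1 led with 1252 ± 23.7 TPM (SD, n = 2, as for the values that follow), above 99.3% of the listed genes. EIF4G2 followed with 795 ± 1.52, EIF4EBP1 with 325 ± 9.48, EIF4G1 with 260 ± 13.0 and EIF4E2 with 112 ± 3.55 TPM. EIF4EBP2 had 42.7 ± 0.721, EIF4G3 38.4 ± 0.728 and EIF4E 13.5 ± 0.424 TPM. The level of EIF4E rests on the effective length of 10911 bases given to it. At the bottom lay EIF4E3 with 1.36 ± 0.191 and EIF4EBP3 with 0.900 ± 0.297 TPM, so the rare EIF4EBP3 stood below every other member and above 30.5% of the listed genes. No neighbours in this order overlapped between the control libraries. In SS, EIF4EBP3 passed EIF4E3 (6.15 ± 3.83 against 1.05 ± 0.134 TPM), and the other members kept their places. In SS+NAC, EIF4G3 and EIF4EBP2 changed places, with ranges that overlapped.

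**Figure D1:**
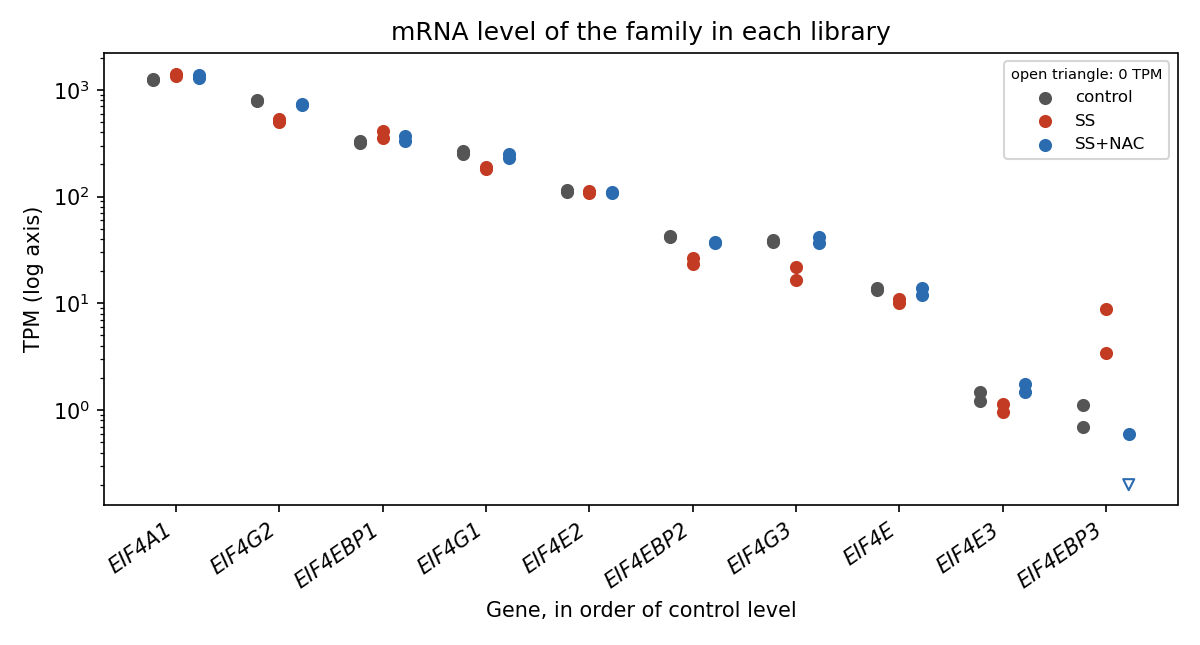
TPM (log axis) of the 10 members in each library, ordered by control level. EIF4EBP3 is the lowest member in control and SS+NAC, where 1 library is at 0, and its SS libraries lie at 3.44 and 8.86 TPM.

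Between SS and control, 7 of the 10 members were called at an adjusted p of at most 0.05, against 40.0% of all tested genes. EIF4EBP1, EIF4EBP3 and EIF4A1 rose (3 of 10, beside 18.6% of all genes) and EIF4EBP2, EIF4G1, EIF4G2 and EIF4G3 fell (4 of 10, beside 21.4%). These counts, and those with an offset below, include EIF4EBP3, which could be tested only because it was high in SS. With at least 10 counts in every library, which removed EIF4EBP3, 5 of 9 members were called (2 higher and 3 lower), beside 44.35% of all genes. In bulk RNA, fewer cells with an mRNA and less of it per cell cannot be told apart. The median log2 fold change of the 10 was -0.12, beside 0.00 for all tested genes. With the length offset, 3 members were called, EIF4EBP3 and EIF4E as higher and EIF4G3 as lower, against 9.23% of all tested genes. The annotated-length offset called 6, EIF4EBP1, EIF4EBP3 and EIF4A1 as higher and EIF4E, EIF4G2 and EIF4G3 as lower, against 29.6% of all tested genes. Fold changes below are in log2 from edgeR's quasi-likelihood test on counts, with the standard error (SE) and the adjusted p, and levels are in CPM (counts scaled by TMM to one library total). On the TPM scale, the median of all tested genes moved by -0.25 between SS and control and by -0.34 between SS and SS+NAC, and 11.9% of the called genes were higher in SS than control, compared with 46.4% on counts. On log2(TPM + 0.1), limma called 2 members higher and 5 lower between SS and control, beside 5.11% and 37.8% of all genes.

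Reads assigned to EIF4EBP3 were few: 7 and 5 in control, 31 and 84 in SS, and 0 and 5 in SS+NAC. The 95% exact Poisson intervals, which cover counting error only, reached from 1.62 to 14.4 in control and from 21.1 to 104 in SS. The SS libraries lay above those of both other groups, and differed from each other beyond counting error (21.1 to 44.0 and 67.0 to 104). As CPM the SS libraries had 1.35 and 3.84, the control libraries 0.389 and 0.226. EIF4EBP3 reached the level of the filter on low counts (0.434 CPM in 2 libraries) in both SS libraries and in 0 libraries of the other groups. It thus passed this filter only because it was high in SS. The intervals above and the p-values that follow for SS are therefore given as a description. The log2 fold change from control to SS was 3.08 (SE 0.665, edgeR adjusted p = 0.00462), and 2.54 (SE 0.656, adjusted p = 0.0392) with the length offset. It ranged from 2.15 to 3.65 when libraries were left out one at a time, with an adjusted p of at most 0.0476. Between SS and SS+NAC it was 4.56 (SE 0.775, adjusted p = 0.00125), and 4.0 (adjusted p = 0.00973) with the offset, with 1 SS+NAC library at 0. Leaving out 1 library gave 3.6 to 8.82 (adjusted p up to 0.0130), and the highest of these values, without SS+NAC replicate 2, is set against a group at 0, depends on the prior count and is no bound. SS+NAC and control differed by -1.48 (SE 1.17, adjusted p = 0.564), with 0 to 7 counts a library, so a difference was not detectable at this depth. It ranged from -5.74, without SS+NAC replicate 2 and so again against a group at 0, to -0.52, without SS+NAC replicate 1, and was not called in any of these fits.

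These counts rest on how RSEM split shared reads. ANKHD1-EIF4EBP3 had 1255 and 1894 counts in control, 1365 and 1483 in SS, and 2196 and 1531 in SS+NAC. EIF4EBP3 made up 0.298% and 0.170% of the counts of EIF4EBP3, ANKHD1-EIF4EBP3 and ANKHD1 together in control, 1.17% and 3.17% in SS, and 0% and 0.155% in SS+NAC. The 95% exact binomial intervals of these shares ended at 0.614% in control and 0.361% in SS+NAC, and began at 0.796% in SS. They take the assigned reads as independent molecules and cover counting error only, not the error of the assignment or the spread between libraries. Like the intervals of the counts, they are a description, since EIF4EBP3 passed the filter only through SS. The read-through gene itself gave a log2 fold change of -0.29 (adjusted p = 0.157) and ANKHD1, a protein with ankyrin repeats and a KH domain, -0.04 (adjusted p = 0.874) between SS and control. Both are long, and with the length offset they gave 0.20 (adjusted p = 0.499) and 0.33 (adjusted p = 0.222). With the 3 genes summed the locus gave -0.15 (SE 0.0712, adjusted p = 0.108) between SS and control and -0.20 (adjusted p = 0.0386) between SS and SS+NAC. With EIF4EBP3 and the read-through gene alone summed, the values were -0.24 (adjusted p = 0.248) and -0.23 (adjusted p = 0.271). EIF4EBP3 made up at most 3.17% of the locus counts in any library, so a gain of its reads could not be resolved in these sums.

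**Figure D2:**
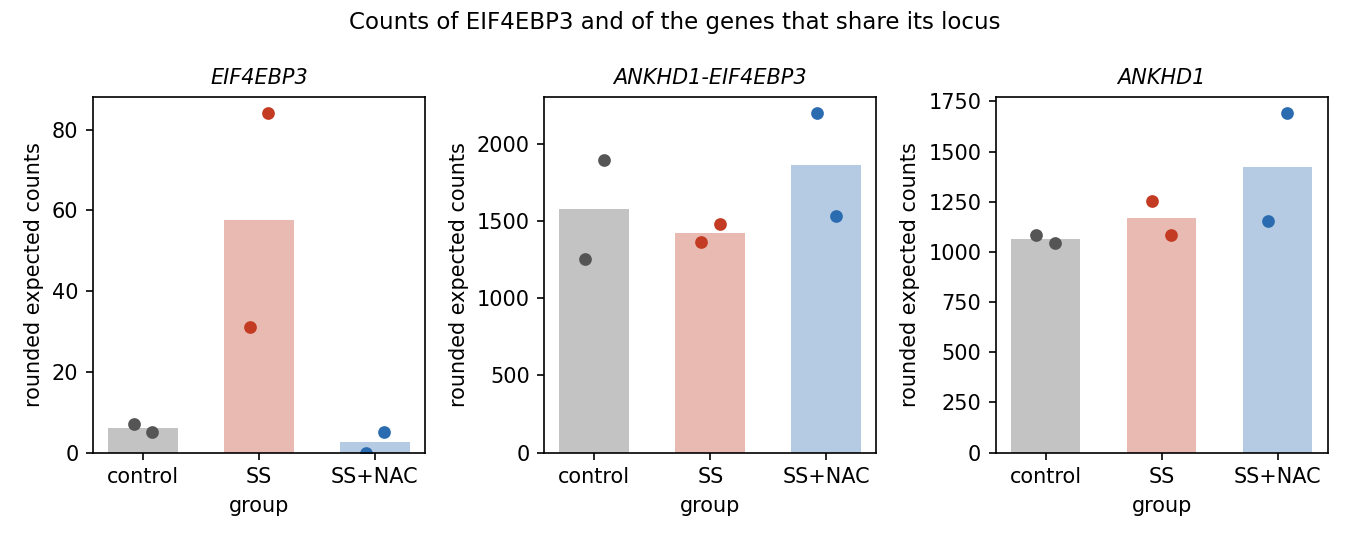
Rounded expected counts of EIF4EBP3, ANKHD1-EIF4EBP3 and ANKHD1 by group, on separate linear axes from 0, with points for libraries and bars for group means. The SS libraries stand above the others for EIF4EBP3 (31 and 84 counts), while for ANKHD1-EIF4EBP3 they lie within the range of the control libraries on this scale, which is not corrected for depth (59.5 and 67.7 CPM in SS, 69.8 and 85.7 CPM in control).

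The genes whose log2 CPM was most like that of EIF4EBP3 over the 6 libraries, of 12918 compared, were PTGES3L and PTGES3 (each Pearson's r 0.997) and SERF1B (0.994). Their ranges were far narrower than that of EIF4EBP3. PTGES3, the HSP90 co-chaperone p23, had 491 and 475 CPM in control, 521 and 550 in SS, and 438 and 479 in SS+NAC. SERF1B, which has a near-identical copy, had 26.62 and 24.97, 29.7 and 34.8, and 19.9 and 24.1 CPM. With 6 libraries and 12918 genes such an r is a description only.

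EIF4EBP1, which encodes the best-studied 4E-BP, had 134 and 142.5 CPM in control, 176 and 221 in SS, and 155 and 132 in SS+NAC. The SS libraries lay above all others and the other groups overlapped. EIF4EBP1 rose with SS by 0.52 against control (SE 0.113, edgeR adjusted p = 0.00471) and by 0.47 against SS+NAC (adjusted p = 0.00742). Without SS replicate 2, these values were 0.35 (adjusted p = 0.0515) and 0.29 (adjusted p = 0.0854). Its effective length is 839 bases, the second shortest of the family, and with the length offset the values were 0.05 (adjusted p = 0.784) and -0.03 (adjusted p = 0.866). The annotated-length offset gave 0.35 (adjusted p = 0.0296) and 0.30 (adjusted p = 0.0430), so the call turned on which offset was used. The length of EIF4EBP1 itself differed little, with 1 annotated coding transcript of 1020 bases. Between SS and control the annotated-length offset left 29.6% of all tested genes called, and the length offset 9.23%. EIF4EBP1 lies at chr8:38030341-38060365 and shares none of its 50-base windows with another gene.

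EIF4EBP2, the 4E-BP abundant in brain, had 162 and 169 CPM in control, 120.3 and 116 in SS, and 143 and 135 in SS+NAC. The groups did not overlap, and SS+NAC lay between the others. EIF4EBP2 fell by 0.48 in SS against control (SE 0.0732, edgeR adjusted p = 0.000763). Against SS+NAC it fell by 0.23 (adjusted p = 0.0266), a call lost in 5 of the 6 fits that left out 1 library (adjusted p up to 0.141) and with the replicate number as a block (adjusted p = 0.0725). SS+NAC differed from control by -0.25 (adjusted p = 0.122), which became -0.30 (adjusted p = 0.0444) without SS+NAC replicate 1. At an effective length of 7643 bases it is at the other end of the length trend from EIF4EBP1, and with the offset SS differed from control by -0.02 (adjusted p = 0.867) and from SS+NAC by 0.21 (adjusted p = 0.0770). EIF4EBP2 is the only gene of the family with a single annotated transcript besides EIF4EBP3, at chr10:70404379-70428618.

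Within the 4E-BPs, EIF4EBP1 supplied 88.0% and 88.3% of the summed TPM in control, 92.2% and 92.6% in SS, and 90.8% and 89.8% in SS+NAC. The share of EIF4EBP3 was 0.307% and 0.184% in control, 0.887% and 2.01% in SS, and 0% and 0.161% in SS+NAC, so EIF4EBP3 stayed a small part of 4E-BP mRNA even where it was highest. The ratio of EIF4EBP1 to EIF4EBP2 was 7.54 and 7.67 in control, 13.4 and 17.3 in SS, and 9.88 and 8.94 in SS+NAC. This ratio sets a short mRNA against a long one, and the length offset brought both changes from control near 0. With the annotated-length offset EIF4EBP2 was near 0 (-0.05), whereas EIF4EBP1 stayed at 0.35. The summed 4E-BP mRNA was 368 ± 9.91 TPM in control, 414 ± 37.2 in SS and 388 ± 22.6 in SS+NAC.

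EIF4E, the cap-binding protein itself, had 75.8 and 74.4 CPM in control, 70.2 and 70.1 in SS, and 66.1 and 71.0 in SS+NAC. It was not called in any comparison, with -0.10 (SE 0.0726, edgeR adjusted p = 0.315) between SS and control, 0.03 between SS and SS+NAC and -0.13 between SS+NAC and control. On the scale of log2(TPM + 0.1) it was lower in SS than control by -0.37 (limma adjusted p = 0.0334), where the median gene moved by -0.25. Its effective length of 10911 bases is the longest of the family, where the median gene was lower in SS than in control. With the length offset EIF4E was higher in SS by 0.46 (SE 0.0684, adjusted p = 0.00382) against control and by 0.57 (adjusted p = 0.00117) against SS+NAC. The annotated coding transcripts of EIF4E run from 686 to 11523 bases (median 1097), and the annotated-length offset gave -0.27 (adjusted p = 0.0220) and -0.12 (adjusted p = 0.237). The direction for EIF4E thus turned on the length given to it. EIF4E lies at chr4:98871684-98930637 on the minus strand, and 5.56% of its 50-base windows occur in other genes.

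EIF4E2 encodes 4EHP, a cap-binding protein that does not join eIF4G and acts in repression. It had 99.8 and 98.1 CPM in control, 103 and 107 in SS, and 94.8 and 88.5 in SS+NAC. The groups did not overlap, with SS highest. The differences were 0.08 (edgeR adjusted p = 0.400) between SS and control and 0.19 (adjusted p = 0.0530) between SS and SS+NAC, the second of which was called with DESeq2's size factors (adjusted p = 0.0343). Under the length offset they were -0.18 (adjusted p = 0.120) and -0.05 (adjusted p = 0.640). The effective length that RSEM gave EIF4E2 was 1737 and 1750 bases in control, 1555 and 1533 in SS, and 1696 and 1742 in SS+NAC, so the SS libraries were assigned a mix of shorter transcripts. Of its 50-base windows, 22.5% occur in other genes. EIF4E2 lies at chr2:232550052-232583644 and EIF4E3 at chr3:71675416-71754773. EIF4E3, a divergent cap-binding protein, had between 55 and 94 counts in a library. It was not called in any comparison (-0.14, adjusted p = 0.606, between SS and control and -0.30 between SS and SS+NAC). EIF4E2 supplied between 87.3% and 90.8% of the summed eIF4E mRNA in TPM in every library. That sum was 127 ± 3.78 TPM in control, 122 ± 4.33 in SS and 124 ± 0.644 in SS+NAC. Share and sum both rest on the effective length given to EIF4E, 10911 bases against a median annotated 1097. On counts both genes lay closer, at 75.1 CPM for EIF4E and 98.9 for EIF4E2 in control, so the share turns on that length.

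**Figure D3:**
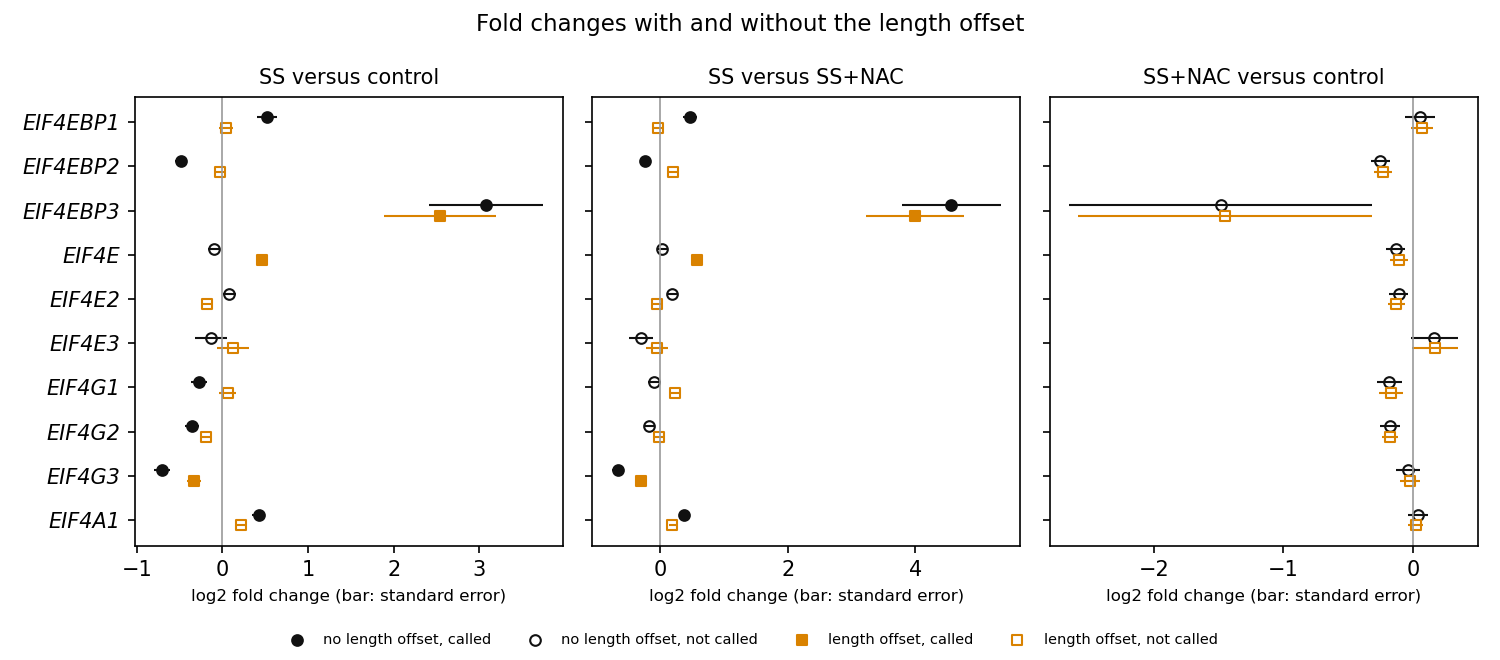
Log2 fold changes of the 10 members in 3 comparisons from edgeR, with bars for the standard error, without (circles) and with (squares) the length offset, and filled symbols where the adjusted p was at most 0.05. EIF4EBP3 and EIF4G3 are filled in both fits of both SS comparisons, and no symbol is filled between SS+NAC and control.

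EIF4G3 had the lowest log2 fold change of the family between SS and control on counts and with the length offset, but not with the annotated-length offset, where EIF4G2 was lower (-0.53 against -0.35). This scaffold, also known as eIF4GII, had 121 and 116 CPM in control, 79.8 and 65.6 in SS, and 113 and 117 in SS+NAC. Both SS libraries lay below all 4 others, which overlapped. The log2 fold change was -0.70 (SE 0.0940, edgeR adjusted p = 0.000452) against control and -0.66 (adjusted p = 0.000561) against SS+NAC. It stayed between -0.85 and -0.57 in the first comparison when libraries were left out. The fit with the offset gave -0.33 (SE 0.0816, adjusted p = 0.0345) and -0.31 (adjusted p = 0.0334), calls that were lost once the replicate block was added (adjusted p = 0.0555 and 0.0541). SS+NAC and control differed by -0.04. EIF4G3 lies at chr1:20806292-21176888 on the minus strand, the widest span of the family, and shares no 50-base window with another gene.

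EIF4G1, the main scaffold, had 698 and 768 CPM in control, 593 and 622 in SS, and 697 and 594 in SS+NAC. The SS libraries lay below both control libraries and overlapped SS+NAC. The fall of 0.27 in SS against control (SE 0.0945, edgeR adjusted p = 0.0425) lost its call in 4 of the 6 fits that left out a library, those without control replicate 1 or 2 or SS replicate 1 or 2 (-0.34 to -0.17, adjusted p up to 0.360). The call was also lost, at a similar fold change, with the replicate block (-0.27, adjusted p = 0.0881), with DESeq2's size factors (-0.26, adjusted p = 0.0512) and with at least 10 counts in every library (-0.24, adjusted p = 0.0526). The length offset gave 0.06 (adjusted p = 0.747) and the annotated-length offset -0.05 (adjusted p = 0.702). SS and SS+NAC differed by -0.09. EIF4G2, also known as DAP5, lacks the part that binds eIF4E and serves cap-independent starts. It had 1573 and 1604 CPM in control, 1221 and 1264 in SS, and 1434 and 1378 in SS+NAC. No groups overlapped, with SS lowest. EIF4G2 fell by 0.35 in SS against control (SE 0.0776, adjusted p = 0.00495), a call lost without control replicate 1 (adjusted p = 0.0553) or 2 (adjusted p = 0.0833) and with the length offset (-0.19, adjusted p = 0.101), but kept with the annotated-length offset (-0.53, adjusted p = 0.000682). SS and SS+NAC differed by -0.18 (adjusted p = 0.0885), and by -0.34 (adjusted p = 0.00522) with the annotated-length offset. EIF4G1 lies at chr3:184314495-184335358 and EIF4G2 at chr11:10797050-10809110. On log2(TPM + 0.1), limma called both genes between SS and SS+NAC, EIF4G1 at -0.38 and EIF4G2 at -0.51, where the median gene moved by -0.34. The 3 scaffolds summed to 1093 ± 10.8 TPM in control, 716 ± 31.4 in SS and 1010.0 ± 1.5 in SS+NAC. The ratio of eIF4G to eIF4E mRNA was 8.40 and 8.88 in control, 5.91 and 5.84 in SS, and 8.13 and 8.21 in SS+NAC, a description on the TPM scale, where the scaffolds are long and the leading eIF4E gene is short. The eIF4E sum in this ratio also rests on the length given to EIF4E. EIF4G2, which lacks the part that binds eIF4E, supplied 71.55% to 73.36% of the scaffold sum over the libraries. EIF4E2, which does not join eIF4G, supplied 87.3% to 90.8% of the eIF4E sum. The ratio therefore does not measure scaffold per cap-binding partner.

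EIF4A1, the helicase that unwinds the 5′ leader of mRNAs, lies at chr17:7572706-7579005. It had 1165 and 1222 CPM in control, 1566 and 1635 in SS, and 1236 and 1221 in SS+NAC. The SS libraries stood above the other 4, which overlapped. EIF4A1 rose by 0.42 against control (SE 0.0782, edgeR adjusted p = 0.00202) and by 0.38 against SS+NAC (adjusted p = 0.00318). With a library left out the values were 0.39 to 0.49 and 0.35 to 0.41. The offset for length gave 0.21 (SE 0.0604, adjusted p = 0.0538) and 0.19 (adjusted p = 0.0581), and the annotated-length offset 0.28 (adjusted p = 0.0148) and 0.24 (adjusted p = 0.0237). On log2(TPM + 0.1), limma gave 0.15 (adjusted p = 0.0703) and 0.0461 (adjusted p = 0.534), while the median gene moved down. Of its 50-base windows, 41.0% also occur in another annotated gene at the locus or elsewhere. Its expected counts were whole in every library, so they show no split of its reads between genes. The ratio of EIF4A1 to summed eIF4G was 1.14 and 1.15 in control, 1.93 and 1.95 in SS, and 1.29 and 1.36 in SS+NAC in TPM.

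**Figure D4:**
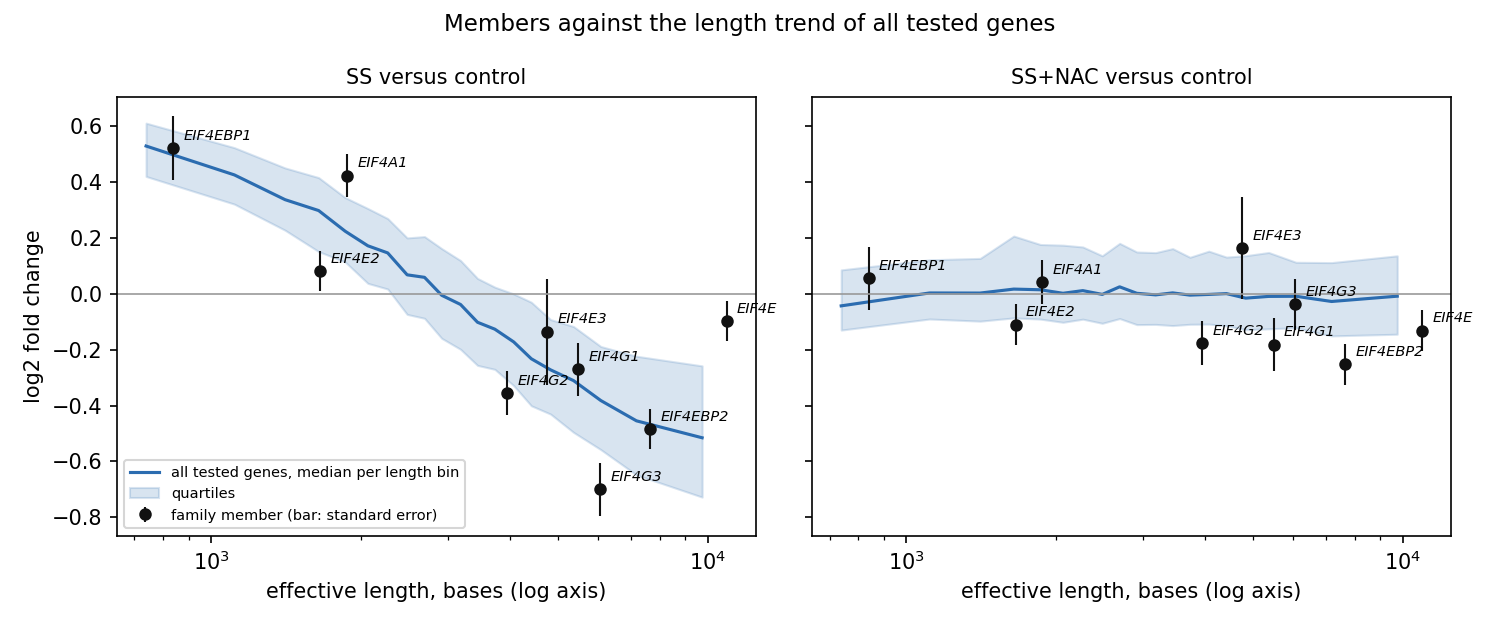
Log2 fold change against effective length (log axis) for 9 members (points, bars for the standard error) over the median and quartiles of all tested genes in 20 length bins. EIF4EBP3 lies off the scale at 3.08 and is not drawn; between SS and control EIF4EBP1, EIF4EBP2, EIF4E3 and EIF4G1 lie within the quartiles of their length bin, EIF4E2, EIF4G2 and EIF4G3 below and EIF4E and EIF4A1 above them, and the trend is flat between SS+NAC and control.

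SS+NAC and control gave no called member, against 2.01% of all tested genes (1.36% higher and 0.657% lower). Of the members, 2 had an unadjusted p under 0.05 in edgeR (EIF4EBP2 and EIF4G2), beside 16.1% of all tested genes, and DESeq2 called 0. Between SS and SS+NAC, 5 of 10 members were called (EIF4EBP1, EIF4EBP3 and EIF4A1 higher, EIF4EBP2 and EIF4G3 lower), against 42.7% of all tested genes (19.6% higher and 23.1% lower), and 3 with the length offset (EIF4EBP3, EIF4E and EIF4G3) against 14.4%. The annotated-length offset called 5 (EIF4EBP1, EIF4EBP3 and EIF4A1 higher, EIF4G2 and EIF4G3 lower) against 34.2%. Each of these SS counts includes EIF4EBP3, which could be tested only because it was high in SS. With at least 10 counts in every library, which removed it, 5 of 9 were called (3 higher and 2 lower), beside 46.47% of all genes. On log2(TPM + 0.1), limma called 1 member higher and 4 lower, beside 4.38% and 46.4%. The comparisons share the SS libraries, so they do not count as separate evidence.

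Of 24 genes whose products bind or regulate the complex, 23 were tested (EIF4E1B was not analysed here). Between SS and control, 7 were called (30.4%, beside 40.0% of all genes), with 2 higher and 5 lower and a median log2 fold change of -0.08. EIF4A3, the helicase of the exon junction complex, rose by 0.47 and PAIP2, which displaces poly(A)-binding protein, by 0.37. LARP1, which represses mRNAs with a terminal oligopyrimidine tract, fell by 0.48 and ANGEL1, an eIF4E-binding protein, by 0.39. These 4 calls were lost with the length offset (EIF4A3 0.21, PAIP2 0.06, LARP1 -0.07 and ANGEL1 -0.21). The poly(A)-binding protein gene PABPC1, the helicase co-factor EIF4B and the eIF4E kinases MKNK1 and MKNK2 were not called. With the length offset 1 was called, beside 9.23% of all genes, DDX6, which was higher by 0.36 (adjusted p = 0.0104). The annotated-length offset went the other way and called 11, with 4 higher and 7 lower, beside 29.6% of all genes. On log2(TPM + 0.1), limma called 1 higher and 14 lower, beside 5.11% and 37.8% of all genes. Between SS and SS+NAC, 6 were called (26.1%, beside 42.7% of all genes), 2 higher (EIF4A3 by 0.54 and PAIP2 by 0.40) and 4 lower, among them LARP1 (-0.52) and ANGEL1 (-0.35). In the fit with the length offset 3 were called higher and 0 lower, beside 14.4% of all genes. DDX3X and DDX6 were called with the offset and not without it, EIF4A3 kept its call (0.30, adjusted p = 0.0381) and PAIP2 (0.11), LARP1 (-0.13) and ANGEL1 (-0.17) lost theirs. The annotated-length offset called 3 higher and 4 lower, beside 34.2% of all genes. Limma on log2(TPM + 0.1) called 1 higher and 17 lower, beside 4.38% and 46.4% of all genes. Between SS+NAC and control, edgeR called 0, with 4 of 23 at an unadjusted p under 0.05 beside 16.1% of all genes, and DESeq2 called 1, beside 2.29%.

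Of the 35 other initiation factors, all tested, 18 were called between SS and control (51.4%, beside 40.0%), 16 higher and 2 lower, with a median of 0.18. The count fell, and its excess over all genes shrank, in some fits that left out a library. EIF3K rose by 0.54 and EIF3A, the largest subunit of eIF3, fell by 0.54. EIF3CL (2.76) and EIF3C (-0.38) are near-identical copies, and their opposite changes are uncertain since reads of both can be split either way. On log2(TPM + 0.1) the split turned, with 4 higher and 11 lower in limma, beside 5.11% and 37.8% of all genes. With the length offset 6 were called, beside 9.23%, of which MCTS1, a re-initiation factor, had the highest value after EIF3CL (0.72, adjusted p = 0.000633, chosen after its value was seen). The annotated-length offset called 12, with 10 higher and 2 lower, beside 29.6%. Between SS and SS+NAC, 20 were called (57.1%, beside 42.7%; 19.6% of all genes were higher and 23.1% lower), 17 higher (EIF3CL by 1.81 and EIF3K by 0.64 the most) and 3 lower (EIF3A -0.48, EIF5A2 -0.44 and EIF3C -0.27), and limma on log2(TPM + 0.1) called 5 higher and 12 lower, beside 4.38% and 46.4%. The length offset called 7 in that comparison, 6 higher and 1 lower, beside 14.4% of all genes. Of these, 3 were also called without it (EIF2B4, EIF3CL and MCTS1) and 4 were not (EIF1AX, EIF1B, EIF2S1 and EIF5), and EIF3K (0.16, adjusted p = 0.129), EIF3A (-0.07, adjusted p = 0.473), EIF5A2 (-0.11, adjusted p = 0.609) and EIF3C (-0.22, adjusted p = 0.0630) lost their calls. The annotated-length offset called 13 between SS and SS+NAC, with 12 higher and 1 lower, beside 34.2%. Between SS+NAC and control edgeR called 0, with 5 of 35 at an unadjusted p under 0.05 beside 16.1%, and DESeq2 called 0. With the length offset, EIF3K gave 0.08 (adjusted p = 0.520) and EIF3A -0.12 (adjusted p = 0.276) between SS and control.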

How the data were processed

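RNA of KHM-5M cells was sequenced by the authors on a BGIseq500 in single-end 50-base reads from 2 biological replicates per group. Per the labels and the submitters' processing notes, the authors used HISAT2 2.0.4, Bowtie2 2.2.5 and RSEM 1.2.12; the annotation is not given in the sources used here. The deposited table (95 columns, 17687 genes) holds expected counts (48.5% of those above 0 not whole), FPKM and TPM, which the authors estimated in RSEM. Deposited log2 fold changes, p-values and q-values of the authors' own comparisons were not used, nor were 9 columns of group means.

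Expected counts were rounded, filtered with filterByExpr, scaled by TMM and fitted over all 6 libraries with edgeR 4.0.16 (quasi-likelihood test, R 4.3.3), with Benjamini-Hochberg adjustment over 14005 genes and genes with an adjusted p up to 0.05 called. The biological coefficient of variation was 6.74%. Levels between genes were compared in TPM. Members had from 0 to 35942 counts, a counting error of 10.9% of the value for EIF4EBP3 at its highest and 0.527% for EIF4A1. Effective length came from counts and FPKM, and the length offset from a lowess fit per library (span 0.3). Named were all members, genes sharing their locus, the 2 highest and 2 lowest called genes of each list per comparison and the 3 genes most like EIF4EBP3. PABPC1, EIF4B, MKNK1, MKNK2, DDX3X, DDX6, EIF1AX, EIF1B, EIF2B4, EIF2S1, EIF5, MCTS1 and, between SS and SS+NAC, EIF3C fall outside this rule and were named after their values were seen. Members and lists were chosen with earlier results of these data known. On simulated data (SS versus control, 14005 genes, 200 changed by a log2 fold change of 1) the fit called 212 genes, 13 falsely. With a length trend added it called 4603 without the offset (4407 falsely) and 205 with it (7 falsely). The trend was added on the same effective lengths that the offset used. The simulation therefore checks the fit only, and not the offset on the real data. Alternatives were DESeq2 1.42.0, limma 3.58.1 on log2(TPM + 0.1), other filters, unrounded counts, the compared groups only, a replicate block and each library left out. Leaving out a library of a compared group left 1 sample there, and the other groups gave the spread. Sequences and gene positions came from RefSeq (GRCh38.p14) and GENCODE release 29. Protein sequences were not used here.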

Additional observations from a re-analysis of the deposited data

How the results depend on the processing

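Over the alternatives other than leaving out a library, 363 values kept their result. For a fold change this meant the same sign and the same side of the threshold. Counts of called genes had to stay within 1.5 times, and levels and shares within the spread. Of the fold changes, 22 lost their call, 10 gained one and 28 changed sign. Another 26 values, which were counts, levels or shares, moved beyond these bounds. The length offset called 3 members between SS and control and 3 between SS and SS+NAC (2 and 2 with the replicate block added), 1 and 3 partner genes (1 and 0) and 6 and 7 other initiation factors (3 and 7), where the fit with the block called 6.08% and 9.75% of all genes. Limma on log2(TPM + 0.1) called 15 and 18 partner genes, beside 43.0% and 50.8% of all genes. Between SS+NAC and control it called 1 other factor, beside 1.08%. The offset from annotated lengths, chosen after seeing the data, called 11 partner genes between SS and control, beside 29.6% of all genes. It called 13 other factors between SS and SS+NAC, beside 34.2%. Between SS+NAC and control, DESeq2 called 1 partner gene (beside 2.29% of all genes) and the filter on 10 counts in every library 1 other factor (beside 2.38%). Leaving out 1 library gave 5 to 7, 0 to 1 and 3 to 5 members, 3 to 7, 0 to 2 and 3 to 8 partner genes, and 8 to 20, 0 to 2 and 11 to 20 other factors in SS versus control, SS+NAC versus control and SS versus SS+NAC. The share of all tested genes called in these fits ranged from 22.4% to 47.0%, 0.686% to 7.62% and 23.3% to 45.2%.

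Signs turned with the length offset between SS and control for EIF4E (0.46), EIF4E2 (-0.18), EIF4E3 (0.12, and 0.13 with the replicate block added) and EIF4G1 (0.0604, with the block 0.0605). Between SS and SS+NAC they turned for EIF4EBP1 (-0.0252, with the block -0.0272), EIF4EBP2 (0.21), EIF4E2 (-0.0501, with the block -0.0497) and EIF4G1 (0.23). With annotated lengths, EIF4E2 turned to -0.0907 between SS and control, and EIF4EBP2 (0.19), EIF4E (-0.12) and EIF4G1 (0.12) between SS and SS+NAC. On log2(TPM + 0.1), EIF4E2 was -0.0183 between SS and control, EIF4G3 0.0274 between SS+NAC and control and EIF4E -0.30 between SS and SS+NAC. Leaving out 1 library turned the sign of EIF4E3 between SS and control (-0.24 to 0.0156), EIF4EBP1 between SS+NAC and control (-0.0651 to 0.17), and EIF4E (-0.0170 to 0.0871) and EIF4G1 (-0.20 to 0.0320) between SS and SS+NAC. EIF4EBP3 summed with ANKHD1-EIF4EBP3 and ANKHD1 gave -0.15, 0.0497 and -0.20 in SS versus control, SS+NAC versus control and SS versus SS+NAC, and with the read-through gene alone -0.24 and -0.23 in the SS comparisons. DESeq2 gave EIF4EBP3 no adjusted p in the comparisons with SS, and the filter on 10 counts in every library removed it.

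The deviations of same-numbered libraries from their group means correlated weakly and with mixed sign (0.11, -0.11 and -0.17). With 2 libraries a group, these values cannot settle whether same-numbered libraries were paired, and the labels give only a number. The replicate block called 4857, 211 and 5136 genes, against 5609, 282 and 5985 without it. The cause of these dependences was not tested.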
